A study of Daphnia magna with 230 samples.

Results

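The hemoglobin transcripts described here are 3 of the 29127 transcripts of the water flea *Daphnia magna* in the deposited count table, which holds fewer transcripts than the reference set the study describes: Dapma7bEVm011064t1, Dapma7bEVm020224t1 and Dapma7bEVm011771t1. They were chosen by name, and the study's annotation calls Dapma7bEVm011064t1 and Dapma7bEVm011771t1 di-domain hemoglobin precursors and Dapma7bEVm020224t1 a globin. The names were given because the study listed these transcripts as differentially expressed in the wetland experiment, so a call in that experiment is not independent evidence of a response, whereas the stormwater libraries had no part in that listing. Members were also chosen with earlier results of these data known, so calls in stormwater are not fully independent either. No sequence, position or length of these transcripts was used here, so the names were not checked against a sequence and levels are compared only within a transcript. All 3 passed the filter on transcripts without variance.

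Each library came from a pool of 5 whole neonates from laboratory cultures, less than 1 day old at the start and exposed for 96 h. In the wetland experiment (69 libraries, 15 groups), laboratory well water held no pyriproxyfen, a juvenile hormone analog, or a lower or a higher concentration of it (labelled Lab Water-119 ng/L and Lab Water-239 ng/L). Water from 6 Minnesota wetlands (Breen, Douglas, Kandiyohi, Kerk, LeSouer and Woodland) held none or the lower concentration (labelled Wetland-119 ng/L). In the stormwater experiment (160 libraries, 32 groups), unspiked stormwater came from 9 sampling points in spring, early summer and late summer, and laboratory water served as the control of each season. The sampling points were 3 pipes (SAP, Cedar-Lake and Crystal-Lake) and the untreated inflow and treated outfall of 3 iron-enhanced sand filters (37ST, TBNS1 and TBNS2). Pyriproxyfen was delivered in ethanol. The unspiked wetland waters held the ethanol vehicle, while the laboratory control of the wetland experiment was water only. Thus, carrier and pyriproxyfen cannot be told apart in laboratory water, and carrier and water cannot be told apart where unspiked wetland and laboratory water are compared. The study describes different genetic backgrounds in the wetland and stormwater experiments, whereas the labels give the same supplier for both.

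The hemoglobin of *Daphnia* is a large protein dissolved in the hemolymph, built of chains that each carry a pair of heme-binding globin domains. It binds oxygen, and animals kept in poorly aerated water make more of it and turn red. Several hemoglobin genes lie side by side in *D. magna*, and juvenile hormone analogs are known to raise hemoglobin transcripts in this species as well. A heme group is needed for each globin domain, and 5-aminolevulinate synthase is the first enzyme of heme synthesis in animals.

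The authors deposited counts estimated by Kallisto, which sum to between 5040650 and 15037010 per library (median 10711130). Values are given as counts scaled to a library total of 1000000 (CPM). A level of 3 counts, used here as the floor of detection for counting error only, is 0.2 CPM in the deepest and 0.595 CPM in the shallowest library. Groups were compared with the quasi-likelihood test of edgeR over all tested transcripts, and a transcript is called where the p-value adjusted by the method of Benjamini and Hochberg is under 0.05. Fold changes are on the log2 scale, where 1 is a 2-fold difference, with their standard error (SE). Pools of a group were drawn from the same beakers and shared 1 water sample. Within 1 water, a p-value of edgeR thus measures the spread between pools and not between waters. Where several waters were joined on 1 side of a comparison, the spread mixes pools and waters. Pools of 1 water still count there as replicates, so such p-values can be too small. Kallisto divides reads among near-identical transcripts, so the level of each member of this family is uncertain. RNA came from whole animals, in which fewer cells of a type and less RNA per cell cannot be told apart.

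In unspiked wetland water, the hemoglobin precursor Dapma7bEVm011064t1 was low compared with laboratory water of the same experiment. It was at 20.6, 63.4, 64.1, 142.5 and 195.2 CPM in the 5 laboratory pools. In the 30 wetland pools it lay between 0 and 91.8 CPM, with a median of 1.6 CPM. In all, 29 of the 30 wetland pools were below every laboratory pool, and the exception was a Kerk pool at 91.8 CPM. The transcript fell by 4.24 on the log2 scale (SE 0.72, adjusted p = 0.000495), and with each laboratory pool left out in turn it was called every time. Among all tested transcripts, 1.4% were called in this comparison, and of the 3 hemoglobin transcripts 2 were called.

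The globin Dapma7bEVm020224t1 also fell, by 1.85 (SE 0.47, adjusted p = 0.0375). Its laboratory pools were at 0.438, 0.86, 1.41, 2.14 and 3.22 CPM. The wetland pools lay between 0 and 1.64 CPM with a median of 0.33 CPM, and 16 of the 30 were at or under the floor. Wetland pools below every laboratory pool numbered 18 of 30, so the groups overlapped. This call was lost without laboratory replicate 2, 3 or 4 (adjusted p = 0.0816, 0.257 and 0.158). The other precursor, Dapma7bEVm011771t1, was not called: laboratory pools were at 0, 0.145, 0.744, 0.776 and 1.13 CPM, wetland pools between 0 and 16.6 CPM with a median of 1.62 CPM, and the difference was 2.56 (SE 1.21, adjusted p = 0.347).

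**Figure D1:**
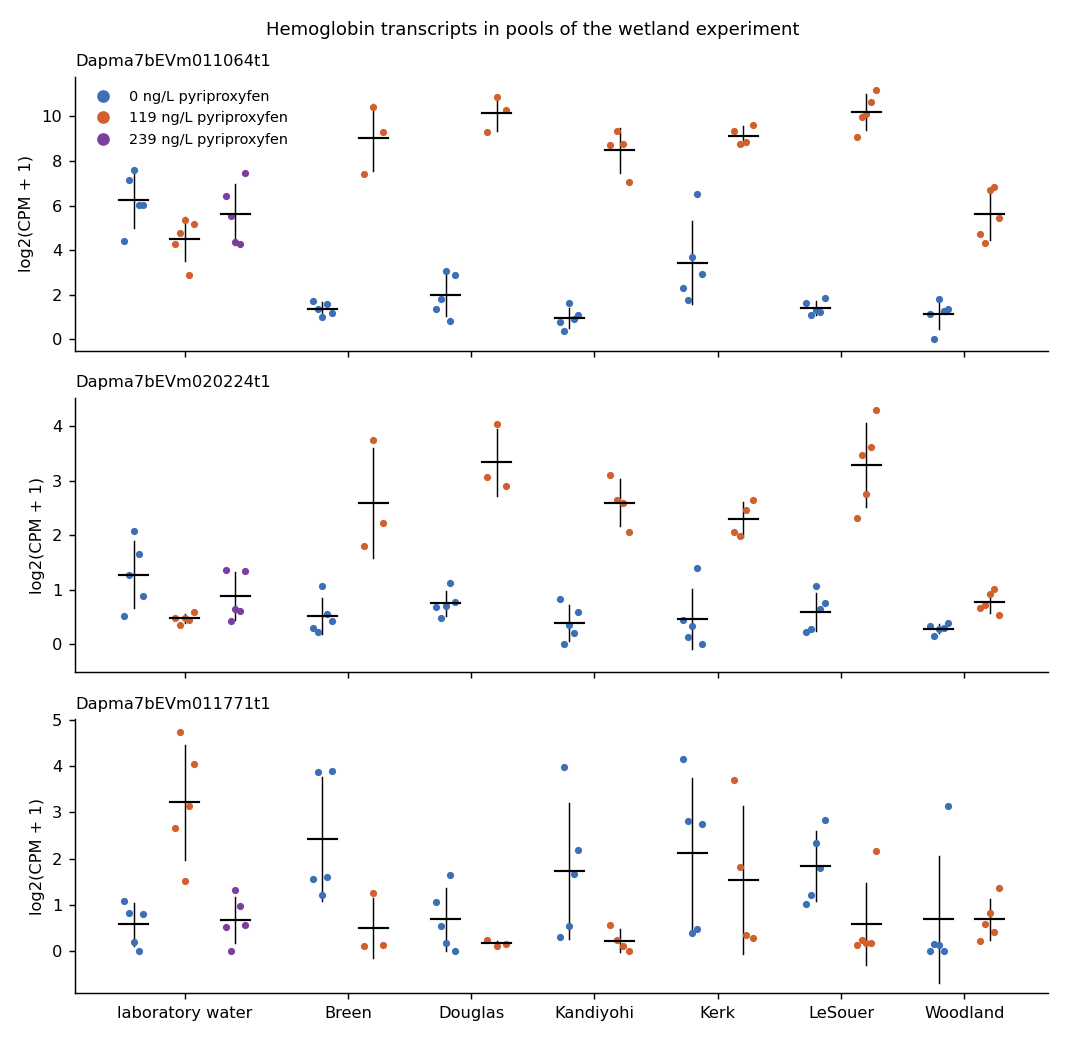
Levels of the 3 hemoglobin transcripts in each pool of the wetland experiment, as log2(CPM + 1), by water and pyriproxyfen concentration (colour). Points are pools, horizontal bars are group means and vertical bars are 1 SD. With the lower concentration, Dapma7bEVm011064t1 lay between 19.4 and 2357 CPM in wetland water, and in laboratory water between 6.41 and 39.7 CPM.

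Unspiked waters of the 6 wetlands differed in Dapma7bEVm011064t1. The Kerk pools were the highest, at 2.46, 4, 6.54, 11.8 and 91.8 CPM. The Douglas pools were at 0.798, 1.6, 2.56, 6.39 and 7.41 CPM. In Breen, Kandiyohi, LeSouer and Woodland water all 20 pools lay at or below 2.64 CPM. The test for any difference among the 6 waters gave F = 11.37 (adjusted p = 0.00237), in a comparison where 3.78% of all tested transcripts were called and 1 of the 3 members was. The means of Dapma7bEVm020224t1 ranged from 0.225 CPM in Woodland to 0.707 CPM in Douglas water (adjusted p = 0.607). Those of Dapma7bEVm011771t1 ranged from 0.769 CPM in Douglas to 6.56 CPM in Breen water (adjusted p = 0.566), with SDs at least as large as the means except in LeSouer water.

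In laboratory water, the lower concentration of pyriproxyfen was followed by opposite changes within the family. The globin Dapma7bEVm020224t1 was at 0.285, 0.367, 0.398, 0.403 and 0.517 CPM in the spiked pools, and 4 of these 5 lay below every unspiked pool. It fell by 2.09 (SE 0.51, adjusted p = 0.0255), although the call was lost with any of 6 of the 10 pools left out (unspiked replicates 3 and 4 and spiked replicates 1 to 4, adjusted p = 0.0558 to 0.0618). The precursor Dapma7bEVm011771t1 rose by 4.20 (SE 0.86, adjusted p = 0.00986). Its spiked pools were at 1.84, 5.36, 7.75, 15.4 and 25.6 CPM, and each of them lay above every unspiked pool. The call of Dapma7bEVm011771t1 held with each pool left out in turn.

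Dapma7bEVm011064t1 was at 6.41, 18.4, 26.6, 35.3 and 39.7 CPM with the lower concentration, and 2 of these 5 pools lay below every unspiked pool. The difference was −1.98 (SE 0.61, adjusted p = 0.0665) and not called, but it passed with DESeq2 (adjusted p = 0.00805) and without unspiked replicate 1 (adjusted p = 0.0271). Thus, 2 of the 3 members were called against 10.1% of all tested transcripts.

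At the higher concentration the levels lay closer to those of unspiked laboratory water. Dapma7bEVm011064t1 was at 18.6, 19.8, 45, 84.4 and 175 CPM, which overlapped the unspiked pools. Dapma7bEVm020224t1 was at 0.351, 0.539, 0.565, 1.56 and 1.56 CPM. Dapma7bEVm011771t1 was at 0, 0.427, 0.48, 0.956 and 1.49 CPM, and each of its pools lay below every pool of the lower concentration. Against unspiked laboratory water no member was called by edgeR or by DESeq2, none had an unadjusted p under 0.05, and 0.94% of all tested transcripts were called. Against the lower concentration edgeR called 0% of all tested transcripts and no member, and 2 members had an unadjusted p under 0.05. Of these, Dapma7bEVm011771t1 (−4.02, SE 0.84, adjusted p = 0.593) was called by DESeq2 (adjusted p = 0.00168). The comparisons of the 3 concentrations share pools.

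In wetland water, the lower concentration of pyriproxyfen was followed by a rise of Dapma7bEVm011064t1 and Dapma7bEVm020224t1 in each of the 6 wetlands. Dapma7bEVm011064t1 lay between 19.4 and 2357 CPM in the 24 spiked pools, with a median of 580 CPM, against the median of 1.6 CPM in the 30 unspiked pools. Of the spiked pools, 21 were above every unspiked pool, and the remaining 3 were Woodland pools. It rose by 7.01 (SE 0.63, adjusted p = 1.64e-11), and by 6.40 to 8.53 with each wetland left out in turn. With the wetlands as the units, the mean difference of log2(CPM + 1) was 7.05 (SE 0.67, n = 6, range 4.47 to 8.77). All 6 wetlands were higher (exact sign-flip test, 2-sided, p = 0.0312, the smallest that 6 units allow).

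Dapma7bEVm020224t1 lay between 0.457 and 18.6 CPM in the spiked wetland pools, with a median of 4.78 CPM against 0.33 CPM. Of the 24 spiked pools, 19 were above every unspiked pool, and the other 5 were the Woodland pools. It rose by 3.60 (SE 0.36, adjusted p = 1.24e-10), and by 3.32 to 3.74 with each wetland left out. Over the wetlands as units the difference was 1.98 (SE 0.33, n = 6), higher in 6 of 6 (exact sign-flip test, 2-sided, p = 0.0312). The 2 members that rose were called among 15.4% of all tested transcripts, as was the third.

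Dapma7bEVm011771t1 went the other way. It lay between 0 and 12 CPM in the spiked wetland pools (median 0.184 CPM, 15 of 24 at or under the floor), while the unspiked pools had a median of 1.62 CPM. It fell by 1.78 (SE 0.61, adjusted p = 0.0382). Over the wetlands as units it was lower in 5 of 6 by a mean of 0.96 on the log2 scale (exact sign-flip test, 2-sided, p = 0.0625). The call was lost with any of Breen, Douglas, Kandiyohi, LeSouer or Woodland left out (adjusted p = 0.0505 to 0.176) and with counts summed per wetland (adjusted p = 0.0752).

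The rise of Dapma7bEVm011064t1 within each wetland separated the pools without overlap. LeSouer pools went from 1.15, 1.33, 1.48, 2.13 and 2.64 CPM to 532, 1006, 1092, 1595 and 2357 CPM, a rise of 9.60 (SE 0.59, adjusted p = 0.000115). Breen pools went from 1.03, 1.24, 1.59, 2.04 and 2.31 CPM to 171, 631 and 1384 CPM, a rise of 8.64 (SE 0.74, adjusted p = 0.00828). Kandiyohi pools went from 0.31, 0.74, 0.897, 1.17 and 2.09 CPM to 131.7, 426, 436 and 658 CPM, a rise of 8.54 (SE 0.69, adjusted p = 0.00576). These 3 wetlands had no unspiked pool above 2.64 CPM and no spiked pool below 131.7 CPM. In Douglas water the spiked pools were at 628, 1264 and 1874 CPM and the rise was 8.29 (SE 0.81, adjusted p = 0.00403). With replicate number as a block in the fit, the calls in Breen, Douglas and Kandiyohi water were lost (adjusted p = 0.94, 0.147 and 0.666). The differences in that fit were 8.36, 8.31 and 8.56. Replicate numbers gave no pairing where checked, and the block left little from which to estimate the spread between pools.

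Woodland and Kerk stood apart. Woodland pools went from 0, 1.23, 1.44, 1.6 and 2.56 CPM to 19.4, 25.2, 42.2, 102.3 and 113.6 CPM, lower than every spiked pool of the other wetlands. The Woodland difference of 5.33 (SE 0.88, adjusted p = 0.473) was not called. Kerk spiked pools were at 431, 457, 653 and 788 CPM, within the range of the other wetlands. The Kerk difference of 4.67 (SE 1.13, adjusted p = 0.0764) was not called, and without the unspiked Kerk pool at 91.8 CPM (replicate 4) it was 6.68 (adjusted p = 0.0145). In a fit of all 69 libraries, in which the wetlands share 1 estimate of spread, both differences were called (adjusted p = 0.000881 for Woodland and 0.00162 for Kerk). That fit was not planned for single wetlands. The size of the effect differed among the 6 wetlands (F = 6.17, adjusted p = 0.0445) where 0.493% of all tested transcripts were called and 1 of the 3 members was.

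Dapma7bEVm020224t1 rose without overlap in each wetland too. The largest spiked values were in LeSouer water, at 3.97, 5.8, 10.1, 11.4 and 18.6 CPM (4.21, SE 0.61, adjusted p = 0.019). The call in LeSouer water was lost with any of 5 of its 10 pools left out (unspiked replicates 1, 2, 4 and 5 and spiked replicate 2, adjusted p = 0.0554 to 0.0751). Douglas pools, at 6.5, 7.42 and 15.5 CPM, were also called (3.65, SE 0.44, adjusted p = 0.00692). In Breen (2.52, 3.68 and 12.4 CPM), Kandiyohi (3.17, 5.01, 5.3 and 7.57 CPM) and Kerk water (2.97, 3.17, 4.55 and 5.31 CPM) the differences of 3.60, 3.75 and 3.23 were not called by edgeR but were by DESeq2 and in the fit of all 69 libraries. Woodland pools were at 0.457, 0.593, 0.646, 0.902 and 1.02 CPM against 0.109 to 0.308 CPM unspiked, a difference of 1.52 (adjusted p = 0.952). The floor was 0.213 to 0.32 CPM in the unspiked and 0.232 to 0.448 CPM in the spiked Woodland pools. The separation in Woodland water thus rests on few counts. Dapma7bEVm011771t1 overlapped between spiked and unspiked pools in each wetland, and its differences ran from −0.51 in Kerk to −4.70 in Kandiyohi water with no call by edgeR. Single pools decided these values: the LeSouer difference of −1.82 became −4.40 and was called without spiked replicate 5 (adjusted p = 0.0369), the Kerk difference became 0.37 without unspiked replicate 1, and the Woodland difference of −1.34 became 3.52 without unspiked replicate 5.

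The members called by edgeR in single wetlands were 1 in Breen, where 0.0889% of all tested transcripts were called, 2 in Douglas (3.66%), 1 in Kandiyohi (0.0444%), 0 in Kerk (1.93%), 2 in LeSouer (0.331%) and 0 in Woodland water (0.012%). In Kerk water 2 members had an unadjusted p under 0.05 and DESeq2 called 2, among 1752 transcripts that it called in all. In Woodland water 2 had an unadjusted p under 0.05 and DESeq2 called 1, among 38 in all. Of 26166 transcripts, 4 (0.0153%) had every spiked pool above every unspiked pool in each of the 6 wetlands, and Dapma7bEVm011064t1 and Dapma7bEVm020224t1 were among these 4. The others were Dapma7bEVm018388t1 and Dapma7bEVm028583t1, which the study's annotation lists as uncharacterized.

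**Figure D2:**
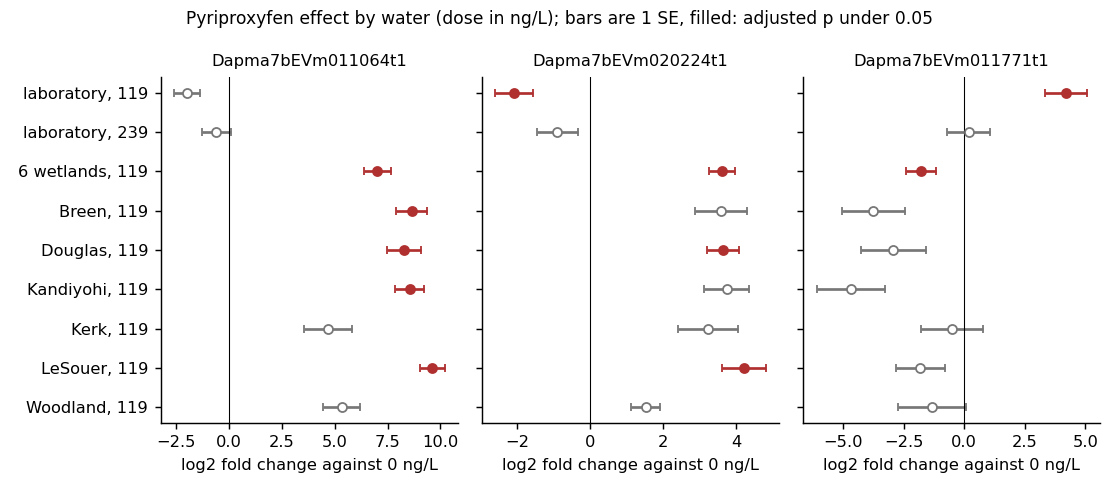
Difference from unspiked water for each hemoglobin transcript (log2 fold change, edgeR), in laboratory water at the lower and the higher concentration of pyriproxyfen, and at the lower concentration over the 6 wetlands and in each wetland. Bars are 1 SE, filled symbols have an adjusted p under 0.05, and the horizontal scales differ between panels. Dapma7bEVm011064t1 was at −1.98 in laboratory water and at 7.01 over the wetlands, and Dapma7bEVm011771t1 was at 4.20 and −1.78.

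At the lower concentration, wetland and laboratory water differed in each member. Dapma7bEVm011064t1 was above every laboratory pool in 22 of 24 wetland pools (4.81, SE 1.04, adjusted p = 0.00354). Dapma7bEVm020224t1 was above every laboratory pool in 23 of 24 (3.90, SE 0.85, adjusted p = 0.00352). Dapma7bEVm011771t1 was below every laboratory pool in 21 of 24 and fell by 3.39 (SE 0.81, adjusted p = 0.00733). All 3 members were called, against 8.37% of all tested transcripts.

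The difference between spiked and unspiked water itself varied between the waters for each member (interaction term). It was more positive in wetland water by 9.01 for Dapma7bEVm011064t1 (SE 1.60, adjusted p = 0.00044) and by 5.70 for Dapma7bEVm020224t1 (SE 0.94, adjusted p = 0.000197). For Dapma7bEVm011771t1 the term was −6.00 (SE 1.62, adjusted p = 0.0114). In this test 8.55% of all tested transcripts were called. The laboratory control held no ethanol carrier while unspiked wetland water did, so carrier and pyriproxyfen cannot be told apart in this term. The term joins the low unspiked wetland levels to the high spiked ones: of the 24 spiked wetland pools, 17 lay above every unspiked laboratory pool for Dapma7bEVm011064t1 and 15 for Dapma7bEVm020224t1.

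The other globins gave a partly shared picture. The study's list names 8 further globin transcripts and 3 transcripts of heme supply, and these were listed for differential expression in the same wetland experiment. In wetland water, 7 of the 8 other globins rose with pyriproxyfen and none fell, with a median of 1.05 against 0.02 over all tested transcripts. In that comparison 15.4% of all tested transcripts were called. The precursor Dapma7bEVm015367t1 rose by 4.09 (adjusted p = 2.26e-11) and Dapma7bEVm015299t1 by 3.39 (adjusted p = 4.37e-05). The remaining 5 that rose had values from 0.69 to 1.26, among them Dapma7bEVm007706t1, annotated as cytoglobin, an intracellular globin in vertebrates. The precursor Dapma7bEVm002046t1 was not called (−0.52, adjusted p = 0.413). None of the 3 heme transcripts was called by edgeR or DESeq2, and 2 had an unadjusted p under 0.05. The 5-aminolevulinate synthase transcripts Dapma7bEVm002278t1 and Dapma7bEVm027691t1 were at 0.88 and 0.96.

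In laboratory water with the lower concentration, edgeR called none of the 8 other globins (4 had an unadjusted p under 0.05 and DESeq2 called 2), and their median was −0.61 against 0.01. There edgeR called 10.1% of all tested transcripts, and DESeq2 called 3645 transcripts in all. Of the heme transcripts, Dapma7bEVm001221t1, named heme-binding protein 2 in the study's tables and a di-domain hemoglobin precursor in its text, fell by 6.82 (SE 1.07, adjusted p = 0.00205). Between unspiked wetland and laboratory water, edgeR called 1.4% of all tested transcripts and DESeq2 called 1005 in all. Of the 8 other globins edgeR called 3, all lower in wetland water, while DESeq2 called 5, of which 2 were higher. Those that edgeR called were Dapma7bEVm002068t1 (−3.98), the cytoglobin Dapma7bEVm007706t1 (−2.49) and Dapma7bEVm015367t1 (−2.22). Both 5-aminolevulinate synthase transcripts fell there, by 2.66 each (adjusted p = 0.00389 and 0.00575). At the lower concentration, 8.37% of all tested transcripts were called between wetland and laboratory water. Of the 8 other globins, 5 were higher in wetland water and Dapma7bEVm002046t1 was lower (−2.16, adjusted p = 0.0395). The interaction term was called for 3 of the 8 (Dapma7bEVm002068t1, Dapma7bEVm015299t1 and Dapma7bEVm015367t1, at 3.29, 4.90 and 5.00) and for 8.55% of all tested transcripts.

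**Figure D3:**
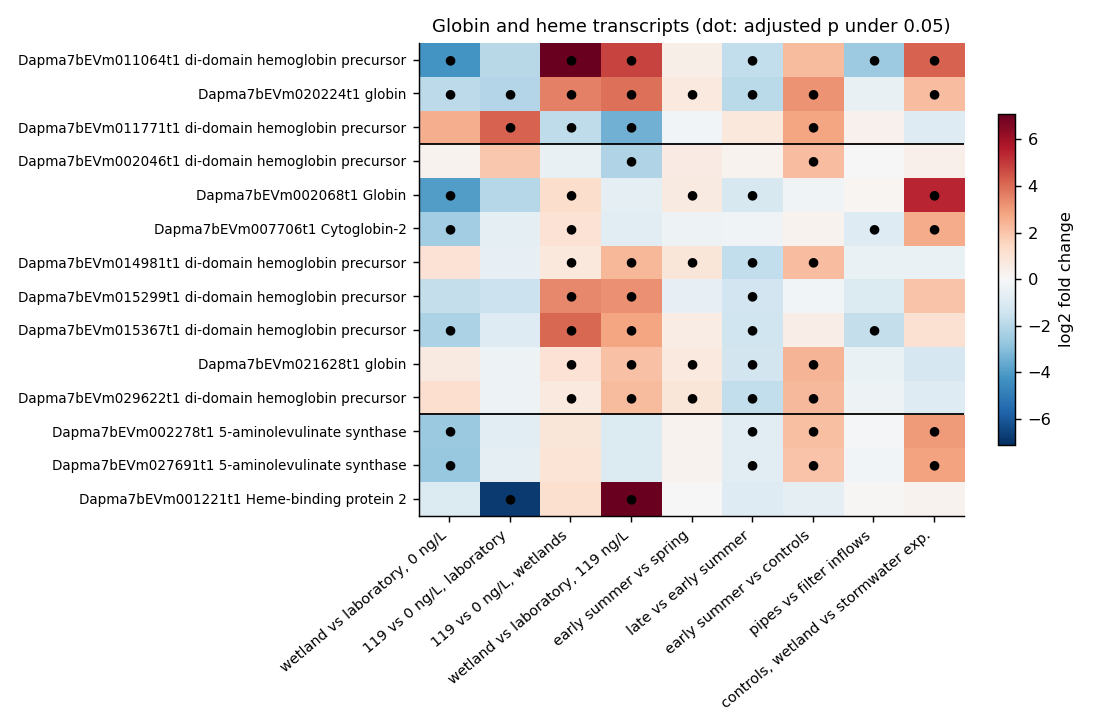
Log2 fold changes of the 3 hemoglobin transcripts (top block), the 8 other globins (middle) and the 3 heme transcripts (bottom) in 9 comparisons. Red is higher and blue lower in the group named first, and a dot marks an adjusted p under 0.05 (edgeR). In wetland water with pyriproxyfen the 7 other globins that rose had values from 0.69 to 4.09, and Dapma7bEVm011771t1 fell by 1.78.

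The laboratory controls of the experiments, neither of which held wetland water, stormwater or pyriproxyfen, differed in the same members. Dapma7bEVm011064t1 lay between 0.83 and 57.8 CPM in the 21 stormwater controls (median 2 CPM), and 4 of the 5 unspiked laboratory pools of the wetland experiment were above all of them. The difference was 4.19 (SE 0.71, adjusted p = 0.000334). In the same transcript, 1 of the 30 unspiked wetland pools lay above and 4 lay below all 21 stormwater controls. Dapma7bEVm020224t1 was between 0 and 1.21 CPM in the stormwater controls, 14 of which were at or under the floor. It was higher in the wetland experiment by 2.18 (SE 0.71, adjusted p = 0.0377), a call lost without the second set of late summer controls (adjusted p = 0.0886) or without wetland experiment replicate 2, 3 or 4 (adjusted p = 0.0736, 0.152 and 0.0987). The median of Dapma7bEVm011771t1 was 0.378 CPM in the stormwater controls, and it was not called (−0.92, adjusted p = 0.641). Here 14.5% of all tested transcripts were called and 2 of the 3 members. Both 5-aminolevulinate synthase transcripts were higher in the wetland experiment (3.01 and 2.85, adjusted p = 0.000315 and 0.00056). Culture, time and experiment cannot be told apart in this comparison.

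In stormwater, Dapma7bEVm011064t1 was lower at the pipes than at the filter inflows. At the pipes its pools lay between 0.589 and 111.7 CPM (median 4.01 CPM, n = 50), at the filter inflows between 0.937 and 264 CPM (median 39.5 CPM, n = 44), and at the outfalls between 0.406 and 421 CPM (median 31.7 CPM, n = 45). Pipe pools were lower than inflow pools by a log2 difference of −2.58 (SE 0.37, adjusted p = 9.04e-07), with season in the fit. With each sampling point left out in turn this difference was called each time and lay between −3.35 and −2.01. Of all tested transcripts 1.52% were called and of the members 1 was. With counts summed per sampling point and season the difference was −2.44 and no longer called (adjusted p = 0.321).

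The pipe at SAP held the lowest levels. Its 20 pools of all seasons lay between 0.589 and 9.22 CPM, with a mean of 3.14 CPM (SD 2.49). Cedar-Lake averaged 7.17 CPM (SD 7.01, n = 15) and Crystal-Lake 20.9 CPM (SD 27.3, n = 15). Means at the filters ran from 41.1 CPM at the TBNS2 inflow (SD 46.7, n = 15) to 104 CPM at the TBNS1 outfall (SD 134.9, n = 15). The mean of the 37ST inflow was 48.3 CPM (SD 31.4, n = 14). At each of the 6 filter points the pools ranged from no more than 4.74 CPM to at least 100.1 CPM, so all of them overlapped the pipes.

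Neither Dapma7bEVm020224t1 nor Dapma7bEVm011771t1 was called between pipes and inflows (−0.55, adjusted p = 0.277, and 0.28, adjusted p = 0.924). Of the other globins, Dapma7bEVm015367t1 (−1.68, adjusted p = 9.04e-07) and the cytoglobin Dapma7bEVm007706t1 (−0.93, adjusted p = 0.0138) were lower at the pipes and none was higher. Their median was −0.45 against 0.03 over all tested transcripts.

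Averaged over the seasons, no difference between inflow and outfall was detected. At 37ST, TBNS1 and TBNS2 the outfall differed from the inflow in Dapma7bEVm011064t1 by 0.14 (SE 0.68), 0.61 (SE 0.88) and −0.42 (SE 0.68), with season in the fit. No member was called at any site by edgeR or DESeq2, none had an unadjusted p under 0.05, and 0% of all tested transcripts were called at each site. Over 9 pairs of site and season the mean difference of log2(CPM + 1) was −0.26 for Dapma7bEVm011064t1, −0.06 for Dapma7bEVm020224t1 and −0.06 for Dapma7bEVm011771t1 (exact sign-flip tests, 2-sided, p = 0.629, 0.684 and 0.734). For Dapma7bEVm011064t1 the pairs of 37ST, TBNS1 and TBNS2 were at 1.08, 1.74 and 0.93 in spring. They were at −0.92, −0.31 and 1.42 in early summer and at −1.90, −1.78 and −2.635 in late summer. Whether outfall and inflow differed by season was not tested.

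**Figure D4:**
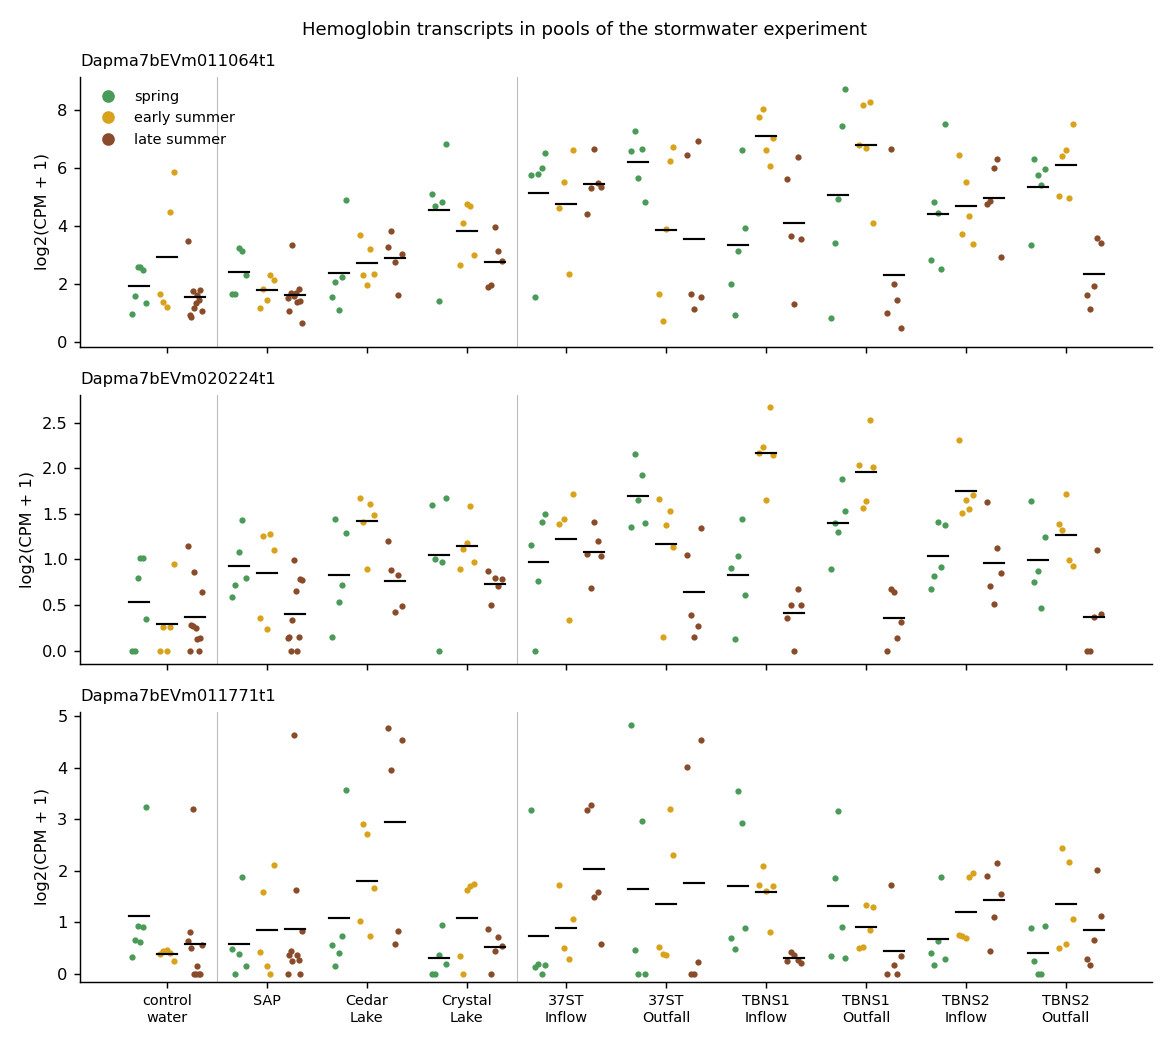
Levels of the 3 hemoglobin transcripts in each pool of the stormwater experiment, as log2(CPM + 1), in control water and at the 9 sampling points, by season (colour). Points are pools and bars are means, with both sets of late summer pools together at SAP and in the controls. Dapma7bEVm011064t1 stayed at or below 9.22 CPM in all SAP pools and reached 421 CPM at the TBNS1 outfall.

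Within early summer the sampling points differed in 2 of the 3 members, where 10.1% of all tested transcripts were called. Dapma7bEVm011064t1 was highest at the TBNS1 outfall (16.2, 102.2, 110.1, 285 and 309 CPM). Its TBNS1 inflow pools were at 67, 97.2, 131.9, 214 and 264 CPM. At SAP it was at 1.25, 1.71, 2.6, 3.43 and 4.02 CPM, below every early summer TBNS1 pool (F = 8.59, adjusted p = 0.000322). Dapma7bEVm020224t1 was highest at the TBNS1 inflow, at 2.14, 3.41, 3.48, 3.68 and 5.38 CPM (F = 3.97, adjusted p = 0.0269). Its early summer pools at SAP were between 0.181 and 1.43 CPM.

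In spring and in late summer edgeR called no member among the sampling points. The share of all tested transcripts called was 1.11% in spring, where 1 member had an unadjusted p under 0.05 and DESeq2 called 1, and 0.281% in late summer, where 2 had an unadjusted p under 0.05 and DESeq2 called 2. Among the sampling points DESeq2 called 902 transcripts in all in spring and 1010 in late summer. The spring outfall of TBNS1 held both extremes of Dapma7bEVm011064t1 (0.801, 9.63, 29.7, 174 and 421 CPM). The late summer pools of Cedar-Lake held the highest group mean of Dapma7bEVm011771t1, with pools at 0.5, 0.778, 14.6, 22.2 and 26.3 CPM.

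The seasons differed most clearly in Dapma7bEVm020224t1. Over the 9 sampling points its median was 1.11 CPM in spring (45 pools, 0 to 3.46 CPM), 1.83 CPM in early summer (44 pools, 0.106 to 5.38 CPM) and 0.568 CPM in late summer (50 pools, 0 to 2.1 CPM). Pools at or under the floor numbered 4 of 45 in spring, 4 of 44 in early summer and 20 of 50 in late summer. The transcript was lower in late than in early summer by a log2 difference of −1.89 (SE 0.24, adjusted p = 4.27e-11) and lower than in spring by −1.21 (SE 0.24, adjusted p = 1.54e-05). With the sampling points as the units it was lower in late than in early summer at 9 of 9 points (mean −0.81, exact sign-flip test, 2-sided, p = 0.00391, the smallest that 9 units allow) and lower than in spring at 8 of 9 (mean −0.46, p = 0.0156). From spring to early summer it rose by 0.67 (SE 0.24, adjusted p = 0.0177). That call was lost without the TBNS1 inflow (adjusted p = 0.168), the TBNS1 outfall (adjusted p = 0.0567) or the TBNS2 inflow (adjusted p = 0.0632), and with counts summed per sampling point (adjusted p = 0.166). The sampling points are not independent units, because inflow and outfall belong to the same 3 filters. Each season also had its own controls, so the season of the water and the set of exposures cannot be told apart.

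Dapma7bEVm011064t1 fell in late summer as well, from medians of 27.4 CPM in spring and 24.3 CPM in early summer to 6.33 CPM. The late summer pools included both sets of SAP, the point with the lowest levels. The log2 differences of late summer were −1.33 against spring (SE 0.44, adjusted p = 0.0129) and −1.76 against early summer (SE 0.45, adjusted p = 0.000589). Neither was called with counts summed per sampling point (adjusted p = 0.0814 and 0.0634), and the difference from spring was lost without the TBNS1 outfall (adjusted p = 0.0684). The points did not move alike. Between early and late summer the mean went from 164 to 21.1 CPM at the TBNS1 outfall and from 84.9 to 5.37 CPM at the TBNS2 outfall, while at the 37ST inflow it was 42.4 and 48.5 CPM and at the TBNS2 inflow 34.6 and 40.5 CPM. Dapma7bEVm011064t1 was lower in late summer than in spring at 5 of 9 points (exact sign-flip test, 2-sided, p = 0.117). It was also lower in late than in early summer at 5 of 9 (exact sign-flip test, 2-sided, p = 0.113).

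Dapma7bEVm011771t1 was not called between seasons. Early summer and spring differed by −0.20 (adjusted p = 0.789), a difference whose sign turned with the sampling point in the fit. In the season comparisons 34.8% (early summer against spring), 31.9% (late summer against spring) and 42.5% (late against early summer) of all tested transcripts were called, and 1, 2 and 2 of the 3 members. The comparisons share libraries. Of the 8 other globins, 6 were called lower by edgeR and by DESeq2 in late than in early summer and none was higher, with a median of −1.34 against 0.04. Both 5-aminolevulinate synthase transcripts were lower too (−0.72 and −0.75, adjusted p = 0.000521 and 0.000379). Late summer stormwater was lower than spring stormwater in 5 of the other globins by edgeR and 7 by DESeq2, and higher in 1, Dapma7bEVm002046t1 (0.81, adjusted p = 0.0277). DESeq2 called 8537 transcripts in all for late summer against spring and 11310 for late against early summer.

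Against the laboratory controls of their own season, members were called by edgeR in early summer only, and whether the difference itself varied with season was not tested. The early summer controls of Dapma7bEVm020224t1 were at 0, 0, 0.191, 0.193 and 0.936 CPM, and the 44 stormwater pools had a median of 1.83 CPM. Of these 5 controls 4 were at or under the floor. The difference was 3.19 (SE 0.68, adjusted p = 0.000728), and it was called with each control left out in turn. For Dapma7bEVm011771t1 the controls lay between 0.195 and 0.378 CPM and the stormwater pools between 0 and 8.16 CPM (median 1.09 CPM). At or under the floor were 3 of the 5 controls and 7 of the 44 stormwater pools. The difference was 2.79 (SE 0.92, adjusted p = 0.0191) and was lost without control replicate 4 (adjusted p = 0.0612). Dapma7bEVm011064t1 was not called (2.25, SE 1.21, adjusted p = 0.164), and its controls were at 1.35, 1.63, 2.19, 21.7 and 57.8 CPM. Thus, 2 of 3 members were called where 27.4% of all tested transcripts were.

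In spring and late summer edgeR called no member against the controls. In spring, 0.104% of all tested transcripts were called, 2 members had an unadjusted p under 0.05 and DESeq2 called 1. In late summer, 0.0192% were called, 1 member had an unadjusted p under 0.05 and DESeq2 called 1. DESeq2 called 166 transcripts in all in spring and 25 in late summer. In both seasons the member that DESeq2 called was Dapma7bEVm011064t1. Its 6 spring controls lay between 0.952 and 5.11 CPM (median 3.28 CPM) and differed from spring stormwater by 3.96 (SE 1.17, adjusted p = 0.18 with edgeR and 0.000499 with DESeq2). Its 10 late summer controls lay between 0.83 and 10.2 CPM (median 1.68 CPM) and differed by 3.19 (SE 0.92, adjusted p = 0.611 with edgeR and 0.00328 with DESeq2). Over all seasons, the stormwater pools above every control numbered 35 in Dapma7bEVm011064t1, 59 in Dapma7bEVm020224t1 and 10 in Dapma7bEVm011771t1.

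The other globins followed the early summer difference in part. Against the early summer controls 4 of the 8 rose and none fell, with a median of 1.32 against 0.00 over all tested transcripts, and both 5-aminolevulinate synthase transcripts rose (2.12 and 2.01, adjusted p = 0.000581 and 0.000793). In that comparison 27.4% of all tested transcripts were called. Among the controls themselves, no member was called between seasons by edgeR, and shares of 0.0313%, 1.54% and 0.469% of all tested transcripts were. Of the 9 member differences among control seasons 2 had an unadjusted p under 0.05, both of Dapma7bEVm011064t1. Its difference of −2.65 between late and early summer (SE 0.77, adjusted p = 0.142) was called by DESeq2 (adjusted p = 0.0276).

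When the group means were put in order, neighbouring groups overlapped for every member, in all 14 neighbouring pairs of the wetland experiment and in all 31 of the stormwater experiment. For Dapma7bEVm011064t1 the order of the wetland experiment opened with the spiked waters of LeSouer (1317 CPM), Douglas (1256 CPM), Breen (729 CPM), Kerk (582 CPM) and Kandiyohi (413 CPM). Unspiked laboratory water (97.1 CPM), laboratory water with the higher concentration (68.6 CPM), spiked Woodland water (60.5 CPM), laboratory water with the lower concentration (25.3 CPM) and unspiked Kerk water (23.3 CPM) followed. Unspiked Kandiyohi water closed it at 1.04 CPM. Dapma7bEVm020224t1 had the same 5 spiked waters on top, from 9.98 CPM in LeSouer to 4 CPM in Kerk water. For Dapma7bEVm011771t1 the top was laboratory water with the lower concentration (11.2 CPM), followed by the unspiked waters of Breen (6.56 CPM), Kerk (5.81 CPM) and Kandiyohi (4.23 CPM), and the lowest was spiked Douglas water (0.124 CPM). In the stormwater experiment Dapma7bEVm011064t1 ran from 164 CPM at the TBNS1 outfall in early summer to 1.74 CPM in the second late summer set of SAP. Of the 24 spiked wetland pools, 17 exceeded every stormwater pool in Dapma7bEVm011064t1.

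Dapma7bEVm011064t1 and Dapma7bEVm020224t1 moved together, and Dapma7bEVm011771t1 did not move with them. Across all libraries of the 47 groups, with the mean of each experiment subtracted, the first pair had a Pearson r of 0.785 and a Spearman rho of 0.766. With each group's mean subtracted, so that only the spread among pools of the same water was left, r was 0.511 and rho 0.486. Across the 47 group means r was 0.890. It was 0.922 over the 15 groups of the wetland experiment and 0.795 over the 32 groups of the stormwater experiment. Dapma7bEVm011064t1 and Dapma7bEVm011771t1 had r = −0.046 across libraries, 0.10 within groups and −0.177 across group means (−0.509 in the wetland and 0.217 in the stormwater experiment). Dapma7bEVm020224t1 and Dapma7bEVm011771t1 had r = −0.018 across libraries, 0.160 within groups and −0.179 across group means (−0.575 in the wetland and 0.352 in the stormwater experiment). For both pairs r across group means was thus negative in the wetland and positive in the stormwater experiment. These values are descriptions: libraries of a group share their water, values of 1 library share its total, and near-identical transcripts can share reads.

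**Figure D5:**
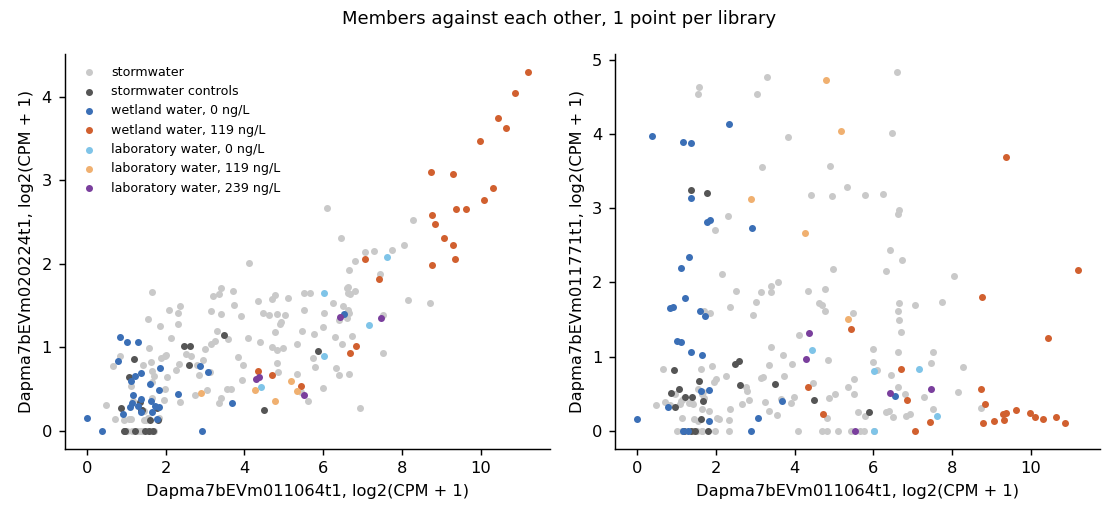
Dapma7bEVm020224t1 (left) and Dapma7bEVm011771t1 (right) against Dapma7bEVm011064t1, 1 point per library, both axes in log2(CPM + 1), coloured by water and pyriproxyfen concentration. In the left panel the highest points on both axes are spiked wetland pools. Of these 24 pools, 17 exceeded every stormwater pool in Dapma7bEVm011064t1 and 9 did in Dapma7bEVm020224t1. The spiked Woodland pools lay within the range of stormwater. In the right panel no trend is seen. With the mean of each experiment subtracted, which the plot does not do, r was 0.785 (left) and −0.046 (right).

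Among the 16496 transcripts with a mean of at least 1 CPM, those most like Dapma7bEVm011064t1 over the same libraries (Pearson r of log2(CPM + 1), experiment mean subtracted) were the uncharacterized Dapma7bEVm028583t1 (r = 0.924), the precursor Dapma7bEVm015367t1 (0.850) and the uncharacterized Dapma7bEVm018388t1 (0.810) and Dapma7bEVm020733t1 (0.786). Dapma7bEVm020224t1 was next, at 0.785. For Dapma7bEVm020224t1, Dapma7bEVm028583t1 was again first (0.806) and Dapma7bEVm011064t1 followed. The transcript most like Dapma7bEVm011771t1 was another precursor, Dapma7bEVm002046t1 (r = 0.856, and 0.847 with group means subtracted), and the next had an r of 0.660. Dapma7bEVm002046t1 was the globin that did not rise with pyriproxyfen in wetland water and that was lower there than in spiked laboratory water, as Dapma7bEVm011771t1 was.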

How the data were processed

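The authors trimmed strand-specific reads with Trimmomatic, ran Kallisto against a reference transcript set of *D. magna*, and deposited its estimated counts of 29127 transcripts in 230 libraries, without normalization. Tool versions are not given in the sources used here, and the batch removal described by the study is not part of these counts. Here the counts were rounded (31.4% were not whole), 2871 transcripts without variance in at least 1 of the experiments were left out and 26256 kept. Groups were compared with edgeR 4.0.16 (TMM, quasi-likelihood test, Benjamini-Hochberg adjustment over all tested transcripts) in R 4.3.3, in fits of the groups compared. DESeq2 1.42.0, other normalization, filters, thresholds, covariates, a replicate block, summed counts and leaving out libraries or waters were alternatives. Exact sign-flip tests of mean log2(CPM + 1) per wetland or sampling point used Python 3.11.15. The scripts were tested on simulated data.

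The members and lists were chosen with earlier results of these data known. The named transcripts are the 3 members, the study's 8 other globins and 3 heme transcripts, and for each member the 5 transcripts of most similar pattern. None of 449 replicate pairs was identical or within sampling noise. One library, whose season is given differently by its label and its code, was put in no group. Late summer libraries of SAP and of the controls came in 2 sets with the same labels. They were kept as separate groups for group means, and only the first set entered the sign-flip tests over sampling points. The other tests with late summer libraries joined both sets, except the test of the control sets against each other and the alternatives without second sets. Replicate numbers recur in most groups. They were checked in 13 pairs of groups (doses of the same water and control sets), and in none did every same-numbered pair correlate above 0.1, so they were not treated as pairs.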

Additional observations from a re-analysis of the deposited data

Results flagged for a closer look

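Among the 3 transcripts in each of 45 groups of 4 to 6 libraries, 16 sets held a pool far from the others of its group by Dixon's criterion at the 95% level, a criterion that chance meets in about 1 of 20 sets. In 15 the pool was the highest of its group and in 1 the lowest, and 11 concerned Dapma7bEVm011771t1.

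For Dapma7bEVm011771t1 the pools that stood out as highest were at 8.06 CPM (37ST inflow, spring, replicate 1), 10.9 CPM (Cedar-Lake, spring, replicate 5), 2.67 CPM (SAP, spring, replicate 4), 2.69 CPM (TBNS2 inflow, spring, replicate 4) and 8.46 CPM (spring controls, replicate 6). In late summer they were at 23.9 CPM (SAP, replicate 5), 2.29 CPM (TBNS1 outfall, replicate 2), 8.23 CPM (controls, replicate 4) and 0.474 CPM (second set of controls, replicate 5). In the wetland experiment they were at 7.83 CPM (unspiked Woodland, replicate 5) and 3.5 CPM (spiked LeSouer, replicate 5). In each of these groups the next pool was at 0.911 CPM or less, so single pools set the group means of this transcript.

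For Dapma7bEVm011064t1 a pool of the 37ST inflow in spring (replicate 2) was at 1.92 CPM where the next lowest was at 53.9 CPM, a late summer SAP pool (replicate 4) was at 9.22 CPM and a late summer pool of the TBNS1 outfall (replicate 2) at 99.1 CPM, where the next was at 3.07 CPM. That TBNS1 outfall pool was also the one that stood out in Dapma7bEVm011771t1. For Dapma7bEVm020224t1 an early summer pool of the TBNS2 inflow (replicate 1) was at 3.97 CPM and an early summer control (replicate 5) at 0.936 CPM.

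The difference between spiked and unspiked water at the lower concentration of pyriproxyfen varied between wetland and laboratory water. The interaction term of edgeR was 9.01 for Dapma7bEVm011064t1, 5.70 for Dapma7bEVm020224t1 and −6.00 for Dapma7bEVm011771t1 on the log2 scale. Carrier and pyriproxyfen cannot be told apart in this term. Among the 6 wetlands the effect on Dapma7bEVm011064t1 differed too (F = 6.17).

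The library put in no group, a 37ST inflow pool, held Dapma7bEVm020224t1 at 2.29 CPM, above the highest of the 21 stormwater controls (1.21 CPM).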

How the results depend on the processing

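Of 1057 values recomputed under alternatives, 967 kept their direction and their side of the threshold. With median-ratio size factors all did, and with the wetland as covariate all 3. With DESeq2, differences that edgeR did not call were called, with effects nearly as in edgeR: for Dapma7bEVm011064t1 in laboratory water at the lower concentration (−1.99), Kerk (4.66), Woodland (5.37), spring, early and late summer stormwater against controls (4.00, 2.20 and 3.19) and late against early summer controls (−2.71); for Dapma7bEVm020224t1 in Breen (3.63), Kandiyohi (3.78) and Kerk (3.21); and for Dapma7bEVm011771t1 at the higher against the lower concentration (−4.05), in Breen (−3.74) and in Kandiyohi (−4.69). Likelihood ratio statistics among sampling points were 25.73 (spring) and 41.29 (late summer) for Dapma7bEVm011064t1 and 27.97 (late summer) for Dapma7bEVm011771t1, and were called. Members called by DESeq2 were 1 at the higher against the lower concentration, 3 in Breen, 3 in Kandiyohi, 2 in Kerk, 1 each for spring and late summer stormwater against controls, and 1 and 2 among sampling points in spring and late summer.

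With an absolute log2 fold change over 2 also required, the members called were 1 between unspiked waters and 0 in each comparison of seasons. With filterByExpr 1 was called in laboratory water at the lower concentration. That filter removed a member in 17 cases and DESeq2 gave no adjusted p in 5, which were not compared. Among these 5, Dapma7bEVm011771t1 in late against early summer controls was at 1.71 in edgeR and −0.33 in DESeq2. In 1 fit of all 69 libraries, Dapma7bEVm011064t1 was called in Kerk (4.67) and Woodland (5.35), and Dapma7bEVm020224t1 in Breen (3.57), Kandiyohi (3.75) and Kerk (3.23). With counts summed per sampling point, Dapma7bEVm011064t1 was not called for late summer against spring (−1.18) or early summer (−1.21) or for pipes (−2.44), nor Dapma7bEVm020224t1 for early summer against spring (0.62), and Dapma7bEVm011771t1 reversed there (0.20), as with sampling point as covariate (0.19). Summed per wetland, Dapma7bEVm011771t1 was at −2.41 and not called. Without second sets, Dapma7bEVm020224t1 between laboratory controls was at 1.95. With a pseudocount of 0.1 CPM, Dapma7bEVm011771t1 over sampling points was at 0.92 for early summer against spring (exact p = 0.0156) and reversed to −0.34 for late against early summer. The cause of these changes was not tested.

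In the 13 pairs of groups checked, replicate numbers gave no pairing, with correlations of same-numbered pools from −0.658 to 0.856. With the replicate block, Dapma7bEVm011064t1 was not called in Breen (8.36), Douglas (8.31) or Kandiyohi (8.56), nor Dapma7bEVm020224t1 in laboratory water at the lower concentration (−1.91), Douglas (3.86) or LeSouer (4.27), and Dapma7bEVm011771t1 reversed in Woodland (0.92). It changed no other call.

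With single libraries or waters left out, Dapma7bEVm020224t1 lay between −2.08 and −1.46 (unspiked waters), −2.33 and −1.71 (laboratory, lower concentration), 3.82 and 4.66 (LeSouer), 0.45 and 0.90 (early summer against spring) and 1.79 and 2.38 (laboratory controls). Dapma7bEVm011064t1 lay between −2.23 and −1.58 (laboratory, lower concentration), 4.38 and 6.68 (Kerk), −1.58 and −1.02 (late summer against spring) and −1.25 and 0.34 (control sets). Dapma7bEVm011771t1 lay between −2.73 and −1.40 (wetlands), −0.28 and 0.62 (laboratory, higher concentration), −2.37 and 0.37 (Kerk), −4.40 and −1.43 (LeSouer), −2.0 and 3.52 (Woodland), −0.38 and 0.17 (early summer against spring), 2.71 and 2.88 (early summer controls) and −0.66 and 0.67 (pipes). Levels near the floor of 3 counts limit Dapma7bEVm020224t1 and Dapma7bEVm011771t1 most.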

Other observations

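One late summer control of the stormwater experiment (first set, replicate 2) stood apart in other globins. The precursors Dapma7bEVm014981t1 and Dapma7bEVm015367t1 were at 0 CPM there and Dapma7bEVm029622t1 at 1.64 CPM, while the medians of its group of 5 were 357 CPM for Dapma7bEVm014981t1 and 1299 CPM for Dapma7bEVm029622t1. The members were also low in that pool, though other controls were as low.

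The library put in no group held Dapma7bEVm011064t1 at 38 CPM and Dapma7bEVm011771t1 at 0.537 CPM, within the ranges of the 37ST inflow pools. Counting it as late summer, as its label reads, changed no call among 12 values recomputed.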
